A study of Mus musculus with 24 samples.

Results

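Arc, Homer1, Npas4, Bdnf and Nptx2 are neuronal genes whose transcription follows synaptic activity and whose products act at or on synapses. They were followed across 6 groups of mouse cerebral cortex RNA, made of 2 fractions and 3 vigilance states. Members were the genes whose array probe sets carried exactly 1 of these symbols, which gave 5 genes of the 18193 genes tested and 12 probe sets (1 for Arc, 6 for Homer1, 1 for Npas4, 2 for Bdnf and 2 for Nptx2). Each gene was represented by its brightest probe set (highest mean of 24 arrays), and all 5 genes entered the tests without a filter on low values. Arc and Homer1 were higher in sleep deprivation and in waking than in sleep, in both fractions. Npas4 was higher in waking in the bound fraction, while Bdnf and Nptx2 passed the test in no comparison of states through the probe sets that represented them. Bound Arc in both states and bound Homer1 in sleep deprivation kept their calls in all 27 alternative settings of the analysis. In bound waking the Homer1 call ended in 13 of 27 and the Npas4 call in 19 of 26. Each unbound call ended when the pool number was taken as a block.

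Activity-regulated genes of this kind are switched on in neurons when calcium enters through synaptic receptors and voltage-gated channels. Kinases then activate factors such as CREB, SRF and MEF2 at promoters and enhancers, and the products feed back on the synapse within hours. In the cortex these transcripts are known to be higher after wakefulness than after sleep, and Arc and the short form of Homer1 are widely used as markers of recent neuronal activity.

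The mice were adults, all heterozygous for the aldh1l1 - eGFP-L10a transgene, in which the Aldh1l1 promoter, active in astrocytes, drives a green fluorescent ribosomal protein, so no group lacked it. Tagged ribosomes were pulled down from the cortex of each animal to give the bound fraction, meant to hold mRNA that astrocytes translate, while the supernatant served as the unbound fraction, with RNA of neurons and the remaining cells. Sleep-deprived mice had been awake for most of the dark phase and were then kept awake for 4 h of the light phase with unfamiliar objects. Waking mice were taken at about 3 to 5 am in the dark phase, in a waking bout of over 1 h and with at least 70% of the preceding 6 to 7 h spent awake. Sleeping mice were taken at about 3 to 5 pm in the light phase, in a sleep bout of over 45 min and with at least 75% of the preceding 6 to 7 h spent asleep. State and time of day cannot be told apart between waking and the other states. No clock time was listed for the taking of sleep-deprived mice, so time of day may also differ between them and sleeping mice. Bound arrays came from single animals (6 each for sleep deprivation, waking and sleep), and unbound arrays from pools of 3 animals of 1 state (2 pools each, of animals 1 to 3 and of animals 4 to 6).

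Levels are given as log2 RMA values, the deposited unit, in which 1 unit is a doubling of probe intensity. Log2 differences are given relative to the median of all genes in the same comparison. In the bound fraction that median was 0.11 (sleep deprivation against sleep), 0.09 (waking against sleep) and 0.02 (sleep deprivation against waking), and in the unbound fraction 0.18, 0.30 and -0.12. Adjusted p-values come from limma over all 18193 genes and refer to the difference before this median was taken off. Arrays of the same group shared exactly tied probe-set values in 48 of 48 pairs and arrays of different groups in 0 of 228 pairs, so normalization may have been run group by group, and an offset between groups cannot be told apart from state or fraction. Within each state animals 1 to 3 tended to deviate from the state mean together, and so did animals 4 to 6, and bound values within these subsets are therefore given beside the pooled differences from sleep and the ratios. Aldh1l1 was 3.72 ± 0.11 higher in the bound fraction (SE, adjusted p = 7.44e-18), all 22 astrocyte markers tested were higher there and 20 of 21 neuron markers were lower, where 42.2% and 27.2% of all genes were.

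Promoter windows (250 bases before to 50 after a gene start) were listed for 3 of the 5 genes in the RefSeq table for GRCm38.p6, with 2 windows for Homer1, 1 for Npas4 and 7 for Bdnf. Both strands were searched for the cyclic AMP response element TGACGTCA and its core TGACG, which CREB binds, for the AP-1 element TGANTCA, for the TATA box TATAAA and for the serum response element. The 3 windows that held the core are shown because CREB-driven induction is the textbook route for this family. Capitals mark TGACG or its reverse complement CGTCA. The windows are chr13:93303507-93303806 (+) for Homer1, chr19:4989922-4990221 (-) for Npas4 and chr2:109692186-109692485 (+) for Bdnf, each written 5′ to 3′ on the gene's strand.
Homer1 promoter: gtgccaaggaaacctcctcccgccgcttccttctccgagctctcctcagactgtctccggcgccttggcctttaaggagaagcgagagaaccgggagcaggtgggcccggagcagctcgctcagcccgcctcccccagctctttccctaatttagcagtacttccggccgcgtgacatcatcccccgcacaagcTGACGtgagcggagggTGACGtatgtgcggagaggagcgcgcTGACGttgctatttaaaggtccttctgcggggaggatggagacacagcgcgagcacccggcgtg
Npas4 promoter: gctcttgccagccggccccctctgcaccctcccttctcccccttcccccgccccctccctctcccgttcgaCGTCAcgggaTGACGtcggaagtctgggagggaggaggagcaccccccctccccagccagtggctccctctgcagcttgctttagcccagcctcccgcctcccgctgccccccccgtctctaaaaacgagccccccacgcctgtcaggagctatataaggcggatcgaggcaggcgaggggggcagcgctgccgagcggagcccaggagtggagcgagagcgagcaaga
Bdnf promoter: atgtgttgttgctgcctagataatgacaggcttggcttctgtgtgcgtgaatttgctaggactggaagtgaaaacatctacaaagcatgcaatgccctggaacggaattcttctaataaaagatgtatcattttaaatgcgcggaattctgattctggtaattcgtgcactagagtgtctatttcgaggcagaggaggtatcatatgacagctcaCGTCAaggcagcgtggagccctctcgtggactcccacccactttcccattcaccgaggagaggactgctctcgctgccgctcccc
The Homer1 window held 3 cores, which began at -56, -40 and -14 from the start. The Npas4 window held 2, at -179 and -169, and the Bdnf window 1, at -35. Among all 32851 listed windows, 20.8% held at least 1, 5.01% at least 2 and 1.03% at least 3. The full element, the letters TATAAA and the serum response element matched in none of the 10 windows of the 3 genes, against 1.79%, 13.6% and 1.63% of all windows. Variant forms of the TATA box were not searched for, so letters such as tatataagg in the Npas4 window were not counted. The pattern TGANTCA, which allows any middle base, matched as TGAATCA in 1 other Bdnf window, against 7.81% of all windows. A match describes the letters and says nothing of binding.

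Arc encodes a cytoskeleton-associated protein that promotes the internalization of AMPA receptors at active synapses. In the bound fraction its level ranged from 7.77 to 9.47 in sleep deprivation (median 8.80), from 7.84 to 9.33 in waking (median 8.22) and from 5.29 to 6.75 in sleep (median 6.06). Every sleep-deprived and every waking animal lay above every sleeping animal, while sleep-deprived and waking animals overlapped. Arc rose by 2.60 ± 0.34 in sleep deprivation against sleep (SE, 6.08-fold, adjusted p = 4.46e-05) and by 2.23 ± 0.34 in waking against sleep (4.68-fold, adjusted p = 0.000239). Among all genes, 7.44% and 6.01% had every array above every sleep array in these comparisons. The rises were 2.72 and 1.95 in animals 1 to 3 and 2.48 and 2.49 in animals 4 to 6.

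Unbound Arc stood at 9.62 and 10.07 in sleep deprivation, 9.36 and 9.97 in waking and 7.39 and 7.67 in sleep. Again the pools of both wake states lay above both sleep pools and overlapped each other. Such separation from sleep was common in the pools, at 42.9% of all genes for sleep deprivation and 55.5% for waking. Arc rose by 2.14 ± 0.27 in sleep deprivation (4.41-fold, adjusted p = 0.0374) and by 1.83 ± 0.27 in waking (3.56-fold, adjusted p = 0.0308). With 1 of the 2 pools of a state left out, the lone pool is assumed to vary like the other groups and limma called 0 of all 18193 genes, Arc among them, with adjusted p from 0.0990 to 0.185 for sleep deprivation and from 0.0687 to 0.147 for waking, while the differences stayed between 1.89 and 2.41 and between 1.51 and 2.16. In bulk samples a change in the number of cells that hold a transcript and a change in RNA per cell cannot be told apart.

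**Figure D1:**
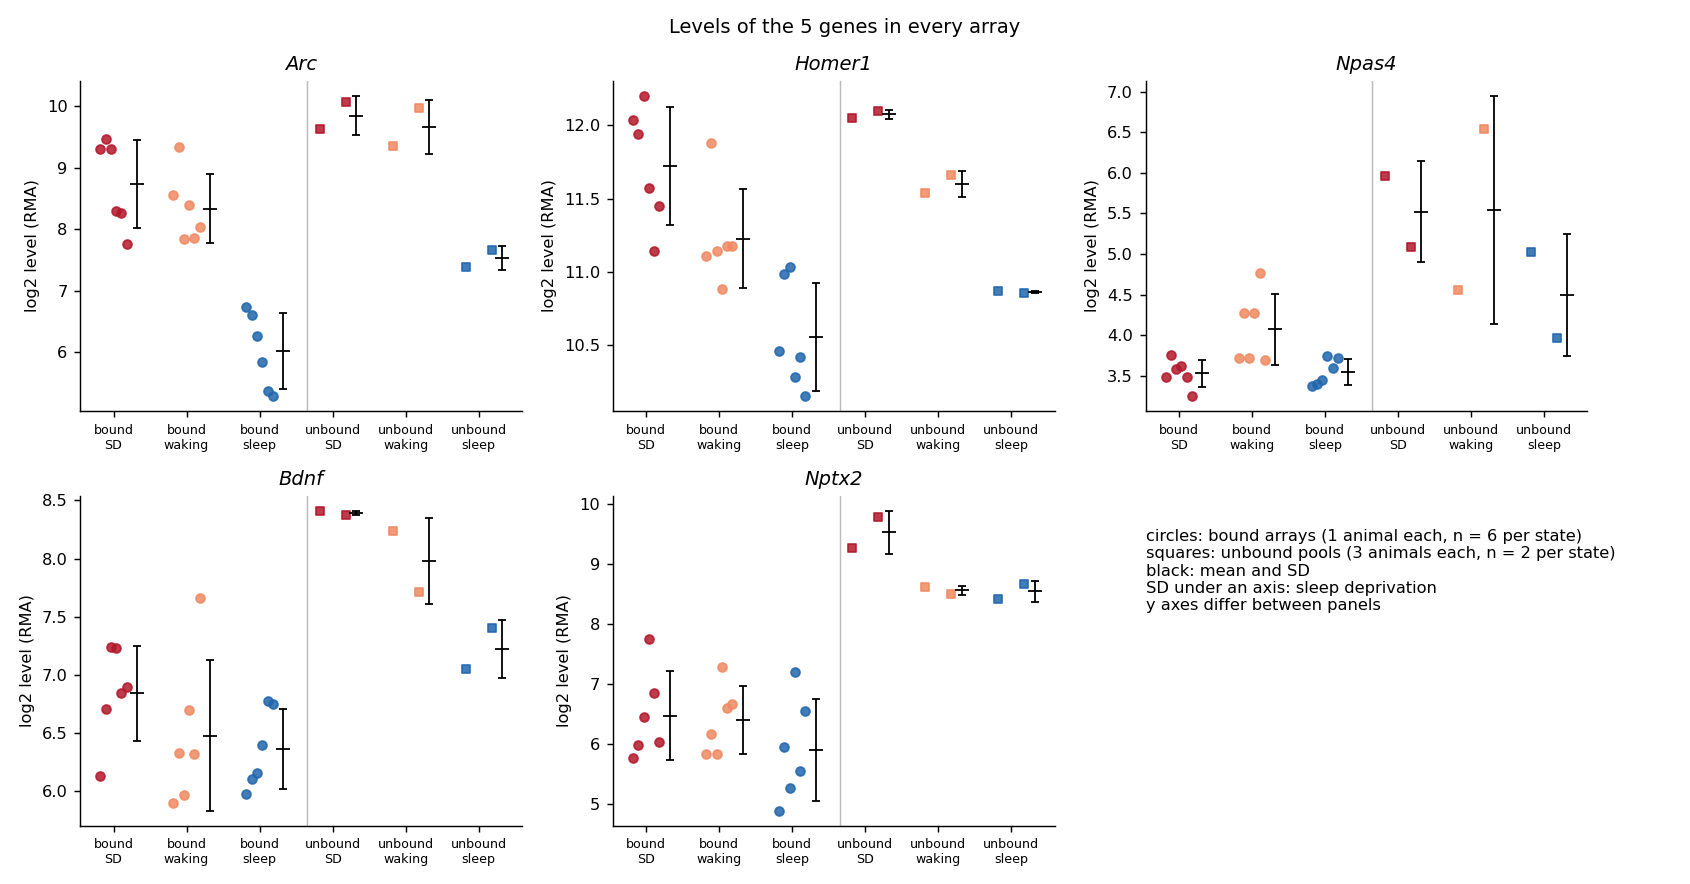
Log2 RMA level of each gene (1 panel per gene, y axes differ) in each array, by fraction and state, with bound arrays (circles, 1 animal each, n = 6 per state) left of unbound pools (squares, 3 animals each, n = 2 per state) and the mean and standard deviation in black. Arc in bound sleep-deprived and waking animals (7.77 to 9.47) lies above all bound sleeping animals (5.29 to 6.75), and Npas4 lies at or below 4.76 in all bound arrays.

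Homer1 encodes a scaffold that links metabotropic glutamate receptors to Shank proteins and to intracellular calcium stores; its short, activity-induced form lacks the domain that joins long forms and loosens that link. Through the probe set that represented it, Homer1 ranged in the bound fraction from 11.14 to 12.20 in sleep deprivation (median 11.75), from 10.88 to 11.88 in waking (median 11.16) and from 10.15 to 11.03 in sleep (median 10.44). Sleep-deprived animals did not overlap with sleeping animals, whereas 5 of 6 waking animals lay above all of them. Homer1 rose by 1.06 ± 0.21 in sleep deprivation (2.08-fold, adjusted p = 0.000806) and by 0.58 ± 0.21 in waking (1.50-fold, adjusted p = 0.0413). Within the subsets the rises were 1.13 and 0.46 in animals 1 to 3 and 0.98 and 0.70 in animals 4 to 6. The waking call ended when arrays were centred on their medians (adjusted p = 0.103) and without bound waking replicate 2, the highest waking array (0.45, adjusted p = 0.0965). It also ended without any 1 of bound sleep replicates 1, 4, 5 and 6 or bound waking replicates 1, 3, 5 and 6 (adjusted p 0.0576 to 0.0945).

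Unbound Homer1 stood at 12.05 and 12.10 in sleep deprivation, 11.54 and 11.66 in waking and 10.86 and 10.87 in sleep. The pools of the 3 states did not overlap, with sleep deprivation highest, against the same background shares as for Arc and 15.7% of all genes with sleep deprivation wholly above waking. Homer1 rose by 1.04 ± 0.15 in sleep deprivation (2.05-fold, adjusted p = 0.0374) and by 0.44 ± 0.15 in waking (1.35-fold, adjusted p = 0.0459). The waking call ended when arrays were centred (adjusted p = 0.193), the sleep deprivation call likewise (adjusted p = 0.0520), and both ended, as did every unbound call, when any 1 pool was left out (adjusted p 0.0769 to 0.185).

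The 6 Homer1 probe sets fell into those that moved with state and those that did not pass the test. In bound sleep deprivation against sleep, 3 of 6 were higher over all 45037 probe sets tested, where 15.6% were. These were 1436387_at by 2.24 ± 0.35 (adjusted p = 0.000138), 1425671_at by 1.65 ± 0.31 (adjusted p = 0.000551) and 1421768_a_at, the one used above, by 1.04 ± 0.21 (adjusted p = 0.000600). The other 3 had differences of 0.35 (1425710_a_at, adjusted p = 0.0579), 0.01 (1439662_at) and -0.20 (1437363_at). In bound waking the same 3 probe sets passed, with 1.23 ± 0.35 for 1436387_at (background 12.1% higher). The strongest of them, 1436387_at, ranged from 10.29 to 11.12 in bound sleep deprivation, from 8.43 to 10.32 in waking and from 7.31 to 9.03 in sleep. Sleep deprivation and sleep stood wholly apart there, and waking spanned the gap between them.

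The unbound pools gave the same order of probe sets at the top. In sleep deprivation 1436387_at (1.58 ± 0.16), 1425671_at (1.52 ± 0.18) and 1421768_a_at (1.05 ± 0.15) were higher, each with adjusted p = 0.0378, against a background of 2.05%. In waking 1437363_at passed as well (0.49 ± 0.16, adjusted p = 0.0464), beside 1.11 ± 0.16 for 1436387_at (background 6.05%). Differences between fractions in the response of single Homer1 probe sets did not pass the test (adjusted p 0.468 to 0.975), where 7.92% of all probe sets passed for sleep deprivation and 8.74% for waking. Which Homer1 transcript each probe set reads was not tested.

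**Figure D2:**
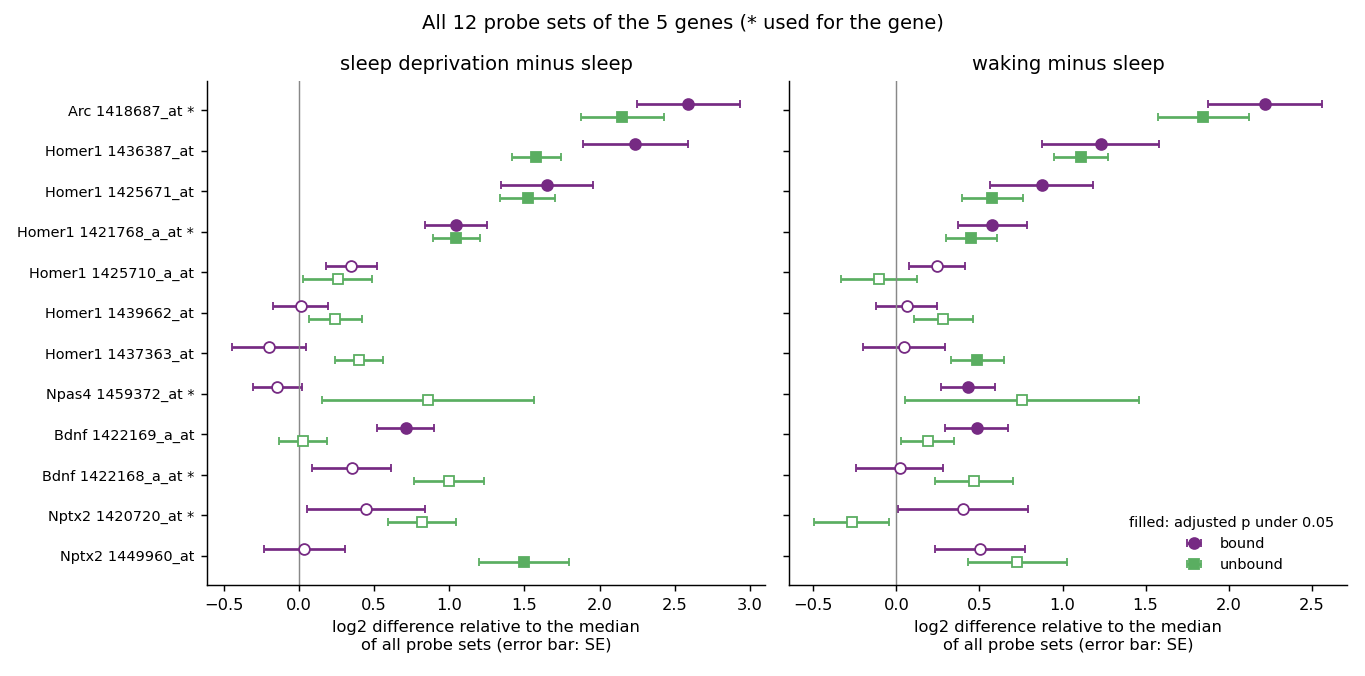
Log2 difference from sleep (x axis, relative to the median of all probe sets, with its standard error) for all 12 probe sets, in sleep deprivation (left) and waking (right), with bound circles above unbound squares and filled symbols for adjusted p under 0.05. The 6 Homer1 probe sets in bound sleep deprivation run from 2.24 down to -0.20.

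Npas4 encodes a neuronal transcription factor induced by calcium that regulates inhibitory synapses and activates Bdnf. Its probe set was dim, with 24.7% of all probe sets below it in the bound fraction and 44.7% in the unbound fraction. In the bound fraction Npas4 ranged from 3.25 to 3.75 in sleep deprivation (median 3.54), from 3.70 to 4.76 in waking (median 3.99) and from 3.38 to 3.74 in sleep (median 3.53). Sleep deprivation and sleep covered nearly the same range, and 3 of 6 waking animals lay above it. Npas4 rose by 0.44 ± 0.16 in waking (1.35-fold, adjusted p = 0.0456) and differed by -0.13 ± 0.16 in sleep deprivation (adjusted p = 0.974). Within the subsets the waking differences were 0.41 in animals 1 to 3 and 0.46 in animals 4 to 6. The call did not hold in either subset alone, when arrays were centred (adjusted p = 0.168) or without any 1 of 14 of the 18 bound arrays (adjusted p 0.0504 to 0.0942), and without bound waking replicate 5 the difference was 0.30.

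Unbound Npas4 stood at 5.96 and 5.09 in sleep deprivation, 4.55 and 6.54 in waking and 5.03 and 3.97 in sleep. The waking pools spread more widely than the states differed. Its differences were 0.85 ± 0.70 in sleep deprivation (adjusted p = 0.398) and 0.74 ± 0.70 in waking (adjusted p = 0.330), neither past the test.

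Bdnf encodes the neurotrophin that signals through TrkB to strengthen synapses. In the bound fraction it ranged from 6.13 to 7.24 in sleep deprivation (median 6.87), from 5.90 to 7.66 in waking (median 6.32) and from 5.98 to 6.78 in sleep (median 6.28). All 3 states overlapped. The differences were 0.37 ± 0.26 in sleep deprivation (95% interval -0.19 to 0.92, adjusted p = 0.274) and 0.03 ± 0.26 in waking (-0.53 to 0.58, adjusted p = 0.873). Its other probe set, 1422169_a_at, was dimmer and passed in both comparisons, with 0.71 ± 0.19 in sleep deprivation (adjusted p = 0.00436) and 0.48 ± 0.19 in waking (adjusted p = 0.0452). In animals 1 to 3 and 4 to 6 the gene's differences were 0.51 and 0.22 in sleep deprivation and -0.10 and 0.15 in waking. The other probe set ranged from 5.27 to 5.98 in bound sleep deprivation, from 4.80 to 6.04 in waking and from 4.38 to 5.01 in sleep, without overlap between sleep deprivation and sleep.

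The probe set used for Bdnf stood, unbound, at 8.40 and 8.38 in sleep deprivation, 8.24 and 7.71 in waking and 7.05 and 7.40 in sleep. The pools of the 3 states did not overlap, yet the differences of 0.99 ± 0.23 in sleep deprivation (1.98-fold, adjusted p = 0.0624) and 0.45 ± 0.23 in waking (adjusted p = 0.0898) missed the threshold. The background shares of such separation are those given for Arc and Homer1. For 1422169_a_at the unbound differences were 0.03 ± 0.16 and 0.19 ± 0.16 (adjusted p = 0.470 and 0.108), so the 2 Bdnf probe sets ranked the fractions in opposite ways, which was not tested between probe sets.

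Nptx2 encodes a secreted pentraxin that clusters AMPA receptors on inhibitory interneurons. In the bound fraction it ranged from 5.76 to 7.75 in sleep deprivation (median 6.24), from 5.82 to 7.29 in waking (median 6.38) and from 4.88 to 7.19 in sleep (median 5.75). The spread within sleep exceeded the differences between states, which were 0.46 ± 0.39 in sleep deprivation (adjusted p = 0.403) and 0.41 ± 0.39 in waking (adjusted p = 0.519). In animals 1 to 3 and 4 to 6 they were 0.60 and 0.32 in sleep deprivation and 0.49 and 0.32 in waking. Unbound Nptx2 stood at 9.27 and 9.78 in sleep deprivation, 8.61 and 8.51 in waking and 8.41 and 8.67 in sleep. Sleep deprivation alone was set apart there, by 0.81 ± 0.22 from sleep (1.75-fold, adjusted p = 0.0733) and by 1.09 ± 0.22 from waking (2.13-fold, adjusted p = 0.0886), both short of the threshold. Its second probe set, 1449960_at, rose by 1.50 ± 0.30 in unbound sleep deprivation (6.26 and 6.96, against 4.67 and 5.23 in sleep, adjusted p = 0.0494), while in the bound fraction its difference was 0.04 ± 0.27.

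Counted over the 5 genes, 2 were higher in bound sleep deprivation against sleep and 3 in bound waking, where 12.3% and 9.07% of all genes were higher. Unbound, 2 were higher in each, where 1.42% and 5.71% were. None was lower in these 4 comparisons, where 2.02%, 2.14%, 0.451% and 0.605% of all genes were. The background depends on scaling. When arrays were centred on their medians, the share of higher among all calls was 58.3% in place of 85.9% for bound sleep deprivation and 51.2% in place of 80.9% for bound waking, and no unbound waking call remained.

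**Figure D3:**
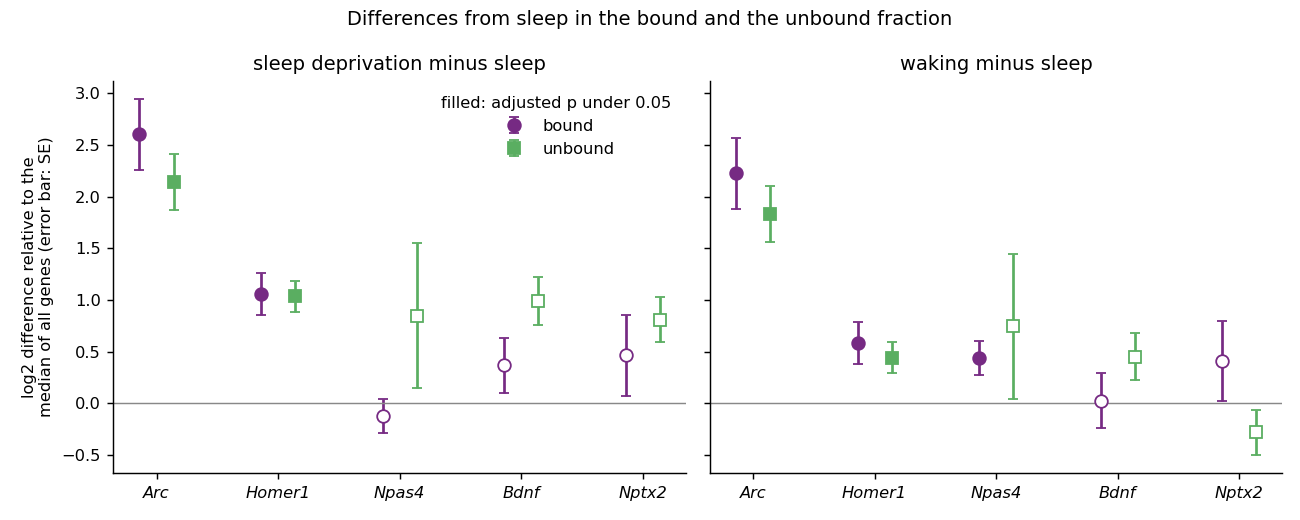
Log2 difference from sleep (y axis, relative to the median of all genes, error bars the standard error) for the 5 genes in sleep deprivation (left) and waking (right), with bound circles left of unbound squares and filled symbols for adjusted p under 0.05. Arc and Homer1 are filled in both fractions and both states, and Npas4 in bound waking.

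Sleep deprivation and waking were compared directly to see whether 4 h of enforced wakefulness in the light phase differed from spontaneous waking in the dark phase. In the bound fraction none of the 5 genes passed limma's test, where 4.17% of genes were higher and 2.67% lower, and 2 had an unadjusted p under 0.05. These were Homer1, with a difference of 0.47 ± 0.21 (95% interval 0.04 to 0.91, adjusted p = 0.185), and Npas4, with -0.57 ± 0.16 (-0.91 to -0.22, adjusted p = 0.0543). Both passed once the limma fit took the replicate number as a block, with adjusted p = 0.0441 for Homer1 and 0.0353 for Npas4. The labels do not pair animals of different states. Within animals 1 to 3 and 4 to 6, same-numbered arrays hardly deviated together (r from -0.11 to 0.18), so these 2 calls rest on a pairing that was not established. All 6 sleep-deprived animals lay below the waking mean for Npas4. Arc differed by 0.38 ± 0.34 (95% interval -0.34 to 1.10), 0.77 in animals 1 to 3 and -0.02 in animals 4 to 6. In the unbound pools none passed, where 0.242% of genes were higher and 0.517% lower, and Homer1 (0.60 ± 0.15, adjusted p = 0.151) and Nptx2 had an unadjusted p under 0.05.

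Between fractions, 4 of the 5 genes were lower in the bound fraction, where 27.2% of all genes were lower. This fit took 1 common spread for single animals and pools of 3. It treated the arrays as independent, though both fractions came from the same animals. Through the probe sets used, the largest difference was that of Nptx2, at -2.78 ± 0.30 (6.87-fold lower, adjusted p = 9.23e-08), whose bound arrays all lay below all unbound pools, as did 10.1% of genes. Npas4 was lower by 3.10-fold (-1.63 ± 0.21, adjusted p = 3.26e-06), Arc by 2.78-fold (-1.47 ± 0.26, adjusted p = 0.000159) and Bdnf by 2.76-fold (-1.46 ± 0.20, adjusted p = 8.14e-06). Homer1 differed by -0.51 ± 0.16 (adjusted p = 0.0537), and with the subset of animals (1 to 3 or 4 to 6) as a block it passed (adjusted p = 0.0191). Its other 5 probe sets were all lower in the bound fraction, by 0.56 to 1.21 (background 31.1%). The second Nptx2 probe set, 1449960_at, differed by -0.59 ± 0.21 (adjusted p = 0.0270) and overlapped between fractions, with 4 of 18 bound arrays below all unbound pools. With the mean of all probe sets of a gene Nptx2 and Bdnf both differed by -1.71.

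Ordered by mean, Arc ran from unbound sleep deprivation (9.85 ± 0.32, SD, n = 2) and unbound waking (9.66 ± 0.43) through bound sleep deprivation (8.74 ± 0.71, n = 6) and bound waking (8.34 ± 0.57) to unbound sleep (7.53 ± 0.20) and bound sleep (6.02 ± 0.62). Neighbours overlapped down to bound waking, and the last 3 did not. The lowest bound arrays of sleep deprivation (7.77) and waking (7.84) lay just above the highest unbound sleep pool (7.67). These levels are not relative to the median of all genes, which differed by 0.16 between fractions. So narrow a gap cannot be told apart from an offset between groups. Homer1 had bound and unbound groups interleaved by state, from 12.08 ± 0.03 in unbound sleep deprivation and 11.72 ± 0.40 in bound sleep deprivation to 10.86 ± 0.01 in unbound sleep and 10.55 ± 0.37 in bound sleep. For Bdnf, Nptx2 and Npas4 all 3 unbound groups ranked above all 3 bound groups by mean. Unbound sleep overlapped the next bound group for Bdnf (7.22 ± 0.25, against 6.84 ± 0.41 in bound sleep deprivation, with bound waking reaching 7.66) and for Npas4 (4.50 ± 0.75, against 4.07 ± 0.44 in bound waking), and not for Nptx2.

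The response to state was compared between the fractions by an interaction term on all 24 arrays. Its p-values and intervals have the limits given for the comparison of fractions, a common spread and arrays taken as independent. None of the 5 genes passed limma's test for the sleep deprivation effect, where 4.89% of genes did, or for the waking effect, where 5.6% did, and none had an unadjusted p under 0.05. For Arc the bound effect exceeded the unbound by 0.46 ± 0.65 in sleep deprivation (95% interval -0.88 to 1.81) and by 0.40 ± 0.65 in waking (-0.95 to 1.74). For Homer1 the differences were 0.02 (95% interval -0.77 to 0.81) and 0.15 (-0.64 to 0.94), and for Bdnf -0.62 (-1.66 to 0.42) and -0.42 (-1.46 to 0.62). Intervals of this width include responses that differ between fractions by more than the Homer1 waking rise itself.

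On the linear scale the rise over sleep was set against each other in the 2 fractions, in intensity units per probe set. Only the probe set used for each gene entered. Levels were used as deposited, without the median of all genes taken off. That log2 median was 0.18 in unbound and 0.11 in bound sleep deprivation, and 0.30 in unbound and 0.09 in bound waking. Arc averaged 471 ± 213 in bound sleep deprivation and 347 ± 158 in bound waking, against 70.0 ± 28.7 in bound sleep (SD, n = 6 each). It averaged 933 ± 204 in unbound sleep deprivation and 829 ± 245 in unbound waking, against 186 ± 25.0 in unbound sleep (SD, n = 2 each). The bound rise was therefore 401 ± 87.8 (SE) in sleep deprivation and 277 ± 65.4 in waking, which is 0.536 and 0.431 of the unbound rise. These ratios were 0.913 and 0.662 in animals 1 to 3 and 0.268 and 0.289 in animals 4 to 6, so the subsets differed by more than the states.

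Over all animals and through the probe sets used, Homer1 had the highest of the ratios given. Its bound rise was 1944 ± 416 in sleep deprivation and 913 ± 318 in waking, 0.791 and 0.731 of the unbound rise. With arrays centred on their medians the waking ratio was 0.979. Over the alternatives other than single arrays left out, the ratio ran from 0.717 to 0.979 in waking and from 0.690 to 0.764 in sleep deprivation. The subsets gave 1.02 and 0.817 in animals 1 to 3 and 0.573 and 0.662 in animals 4 to 6. Bdnf had ratios of 0.184 and 0.131, with bound rises of 34.0 ± 15.0 and 13.8 ± 23.3. Its ratios were 0.197 in sleep deprivation and -0.0014 in waking in animals 1 to 3, and 0.168 and 0.680 in animals 4 to 6, where the waking ratio was above that of Homer1. No ratio was computed for the other probe sets, some of which ranked the fractions otherwise. In sleep deprivation Bdnf 1422169_a_at differed from sleep by log2 0.71 bound and 0.03 unbound. Homer1 1437363_at differed by -0.20 bound and 0.40 unbound. Nptx2 had 0.0821 in sleep deprivation, from a bound rise of 30.8 ± 30.6 beside 376 unbound, and Npas4 had -0.0054, from a bound rise of -0.13 ± 0.76. No ratio is given for Npas4 and Nptx2 in waking, where unbound waking and sleep pools overlapped.

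These ratios stand beside the level ratio of neuron markers, bound over unbound. It compares array intensities and is not a share of transcripts carried over (Slc17a7 reached 1.19 in sleep). The linear level of the 21 neuron markers in bound over unbound arrays had a median of 0.270 in sleep deprivation (0.0803 for Neurod6 to 0.649 for Snap25), 0.230 in waking (0.0878 for Tbr1 to 0.762 for Slc17a7) and 0.292 in sleep. Of these markers 3 and 5 had a level ratio above Arc's ratio of rise in sleep deprivation and waking, 0 and 1 above that of Homer1, and 17 and 18 above that of Bdnf. Astrocyte markers had medians from 9.21 in waking to 12.4 in sleep. Among other activity-regulated effectors the median ratio of rise was 0.180 in sleep deprivation and 0.0691 in waking (17 of 21 genes), and among activity-regulated transcription factors 0.518 and 0.444 (15 of 18 genes). The part of neuronal RNA carried into the bound fraction in these rises was not tested.

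**Figure D4:**
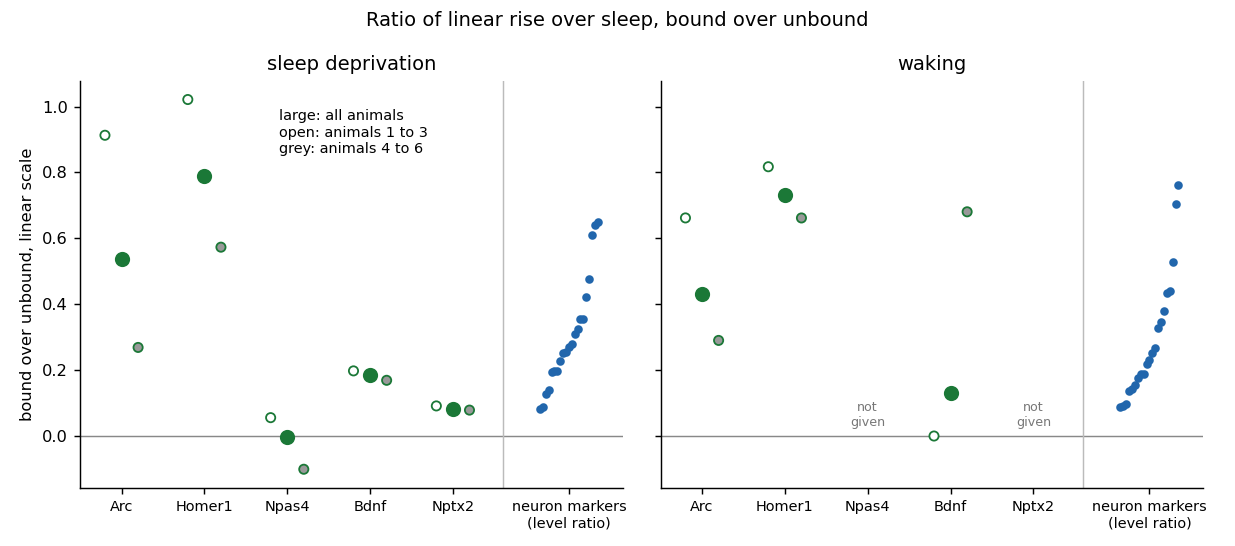
Ratio of the linear rise over sleep, bound over unbound (y axis, no unit), for the 5 genes in sleep deprivation (left) and waking (right), over all animals (large), animals 1 to 3 (open) and animals 4 to 6 (grey), beside the bound over unbound level ratio of 21 neuron markers (blue). Over all animals and through the probe sets used, Homer1 (0.791 and 0.731) and Arc (0.536 and 0.431) lie above the neuron-marker medians of 0.270 and 0.230. Bdnf (0.184 and 0.131) lies below them. Ratios of the other probe sets were not computed. With animals 4 to 6 alone, Arc lies close to the neuron-marker median in sleep deprivation, and Bdnf lies above it in waking. The marker medians are over all animals, and none was computed for animals 4 to 6. Levels are as deposited, without the median of all genes taken off.

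The summed linear level of the neuron markers in the bound fraction did not separate the states. It ran from 31444 to 37543 in sleep deprivation, from 28102 to 37645 in waking and from 30155 to 37256 in sleep. Of the 21 markers 0 were higher and 1, Stmn2, was lower in bound sleep deprivation (-0.70 ± 0.16, adjusted p = 0.0200), and limma called 0 in bound waking, with 1 at an unadjusted p under 0.05. Of the 22 astrocyte markers Gjb6, a gap junction connexin, was higher in sleep deprivation and Gjb6 and Fgfr3 in waking. Against 12.3% and 9.07% of all genes, endothelial markers were higher for 1 of 9 in sleep deprivation (Tie1) and 3 of 9 in waking (Esam, Cldn5 and Tie1), microglia markers for 1 of 11 (Itgam) and 2 of 11 (Tmem119 and Itgam). Of the 11 oligodendrocyte markers 0 and 2 (Ugt8a and Ermn) were higher, and of the 8 pericyte and smooth muscle markers Myh11 was higher in both states, Abcc9 in waking, and Kcnj8 lower in both. In the unbound pools, the denominator of the ratios above, the neuron marker sum was 93482 and 95703 in sleep deprivation and 97494 and 99488 in waking. Sleep pools had 81050 and 84904, so the states stood apart. These sums keep the shift of all genes, whose median was 0.18 and 0.30 above sleep. Relative to it, the neuron markers had median differences of 0.04 in sleep deprivation and -0.01 in waking. Oligodendrocyte marker sums also stood apart from sleep (18344 and 18934 in waking, 15672 and 15701 in sleep). Of the 21 neuron markers limma called 0 in either state. Unbound waking had 2 of 22 astrocyte markers (Gjb6 and Acsbg1) and 2 of 9 endothelial markers (Slco1a4 and Flt1) higher, where 5.71% of all genes were. At an unadjusted p under 0.05 in limma, 11 of 22 astrocyte, 8 of 21 neuron and 5 of 9 endothelial markers were higher and 0 lower. Of all 18193 genes, 5891 had such a p there, in either direction. When arrays were centred on their medians, 0 genes were called in unbound waking. The part of all these markers in the members' differences was not tested.

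Across the 18 bound arrays Arc and Homer1 moved together, with Pearson's r = 0.89, and r = 0.74 after the mean of each state was taken off. These arrays share the state groups and the 2 subsets of animals, so r is a description. Arc with Npas4 gave 0.23 and 0.03, Arc with Bdnf 0.14 and -0.40, and Arc with Nptx2 0.17 and -0.38. Bdnf and Nptx2 had r = 0.57, and 0.54 within states. Npas4 with Nptx2 gave 0.37, and 0.41 within states. Through the probe sets used, Arc and Homer1 thus had the highest r of the 10 pairs, both across all bound arrays and within states. For Homer1 this holds for 1421768_a_at, and no r was computed for its other probe sets. Within bound sleep, 1436387_at was lower in animals 1 to 3 (7.31 to 8.13) than in animals 4 to 6 (8.38 to 9.03), the opposite order to Arc.

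**Figure D5:**
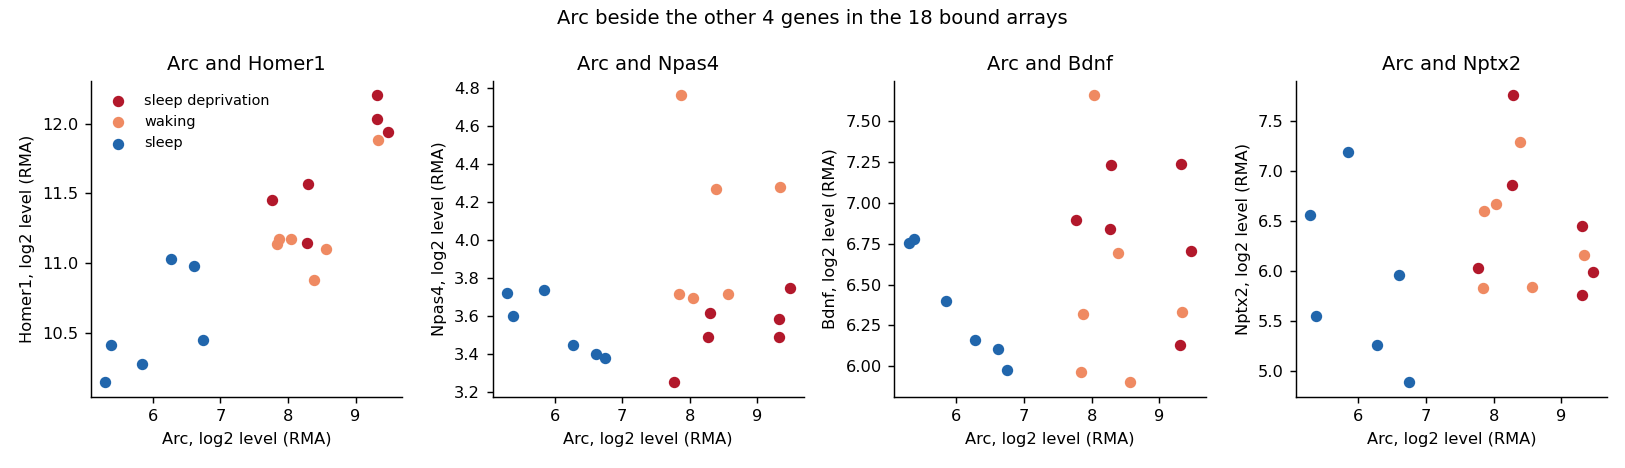
Log2 RMA level of Homer1, Npas4, Bdnf and Nptx2 (y axes) against that of Arc (x axes) in the 18 bound arrays, coloured by state. Sleeping animals occupy the low end of Arc (5.29 to 6.75) in every panel. Only with Homer1, read through 1421768_a_at, do the points follow a common line (r = 0.89).

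The genes most like each member over the same 18 arrays were taken from 11603 genes at or above the median level. For Arc these were Nr4a3 (r = 0.94), Mfsd2a (0.93), Rsrp1 (0.93), Dusp1 (0.91) and Nr4a1 (0.90). For Homer1 they were Nr4a3 (0.93), Lgalsl (0.92) and Tsc22d3 (0.91). Nr4a1 and Nr4a3 are orphan nuclear receptors of the early response, Dusp1 is a MAP kinase phosphatase and Mfsd2a a lipid transporter. Nr4a3 headed both lists and averaged 9.03 in bound sleep deprivation and 8.41 in bound waking, against 7.31 in bound sleep. The closest genes to Npas4 were Cdkl2 (0.85), Tmcc2 (0.84) and Khdrbs3 (0.79), those to Bdnf were Nek4 (0.86), Map7d2 (0.82) and Ube2q2 (0.82), and those to Nptx2 were Xpo7 (0.88), Ccnc (0.86) and Twnk (0.85).

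Of 21 other activity-regulated effectors tested, 5 were higher in bound sleep deprivation and 3 in bound waking, where 12.3% and 9.07% of all genes were, with medians of 0.28 and 0.05. Sik1, a salt-inducible kinase that restrains CREB coactivators, rose by 1.81 ± 0.15 in sleep deprivation (3.51-fold, adjusted p = 7.72e-07) and by 1.02 ± 0.15 in waking. Gem, a small GTPase that limits calcium channels, rose by 1.44 ± 0.22 and 1.13 ± 0.22, and Synpo, which marks the spine apparatus, by 0.78 ± 0.19 and 0.61 ± 0.19. Plk2 (0.48) and Scg2 (0.43) passed in sleep deprivation. In the unbound pools 3 and 6 of the 21 were higher, where 1.42% and 5.71% of all genes were, among them Ptgs2 (1.88 and 1.45) and Inhba (1.56 and 1.03), and Gem (2.06 and 1.17) in both. Sik1 alone of this list differed between bound sleep deprivation and bound waking (0.79 ± 0.15, adjusted p = 0.00233), where 4.17% of all genes were higher.

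Of 18 activity-regulated transcription factors tested, 10 were higher in bound sleep deprivation and 7 in bound waking, with medians of 0.87 and 0.55 and none lower, against the same 12.3% and 9.07% of all genes. Egr2 rose by 3.28 ± 0.55 and 2.56 ± 0.55, Maff by 2.24 ± 0.23 and 1.44 ± 0.23, Nr4a1 by 2.17 ± 0.27 and 1.77 ± 0.27 and Fosb by 2.15 ± 0.29 and 1.14 ± 0.29. In the unbound pools 6 were higher in sleep deprivation and 9 in waking, where 1.42% and 5.71% of all genes were. They were led by Egr2 (2.71 and 2.36), Fos (2.47 and 2.04), Maff (2.14 and 1.45) and Nr4a1 (1.94 and 1.83). In waking 1, Atf3, was lower (-1.40 ± 0.24, adjusted p = 0.0496), where 0.605% of all genes were. Fosb (1.01 ± 0.29) and Maff (0.80 ± 0.23) were also higher in bound sleep deprivation than in bound waking, where 4.17% of all genes were.

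Upstream of the members, 1 of 13 activators tested was higher in each bound comparison, a share near that of all genes. This was Crem, a CREB relative with an inducible repressor form, which rose by 1.43 ± 0.15 in sleep deprivation, by 0.48 ± 0.15 in waking and by 0.95 ± 0.15 in sleep deprivation against waking. Its sleep deprivation effect was larger in the bound than in the unbound fraction by 1.45 ± 0.29 (adjusted p = 0.00639). In the unbound pools none of the 13 passed in sleep deprivation, and Srf did in waking (0.66 ± 0.19, adjusted p = 0.0454), where 5.71% of all genes were higher.

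Among receptors and binding partners of the members, limma called 0 of 23 in bound sleep deprivation, where 2 had an unadjusted p under 0.05, and 0 of 23 in bound waking, where 3 did, with medians of -0.02 and -0.05 and ranges of -0.55 to 0.37 and -0.51 to 0.59. Ntrk2, the BDNF receptor TrkB, was 6.87-fold higher in the bound than in the unbound fraction (2.78 ± 0.07), and so were Homer3 (1.53 ± 0.14) and Sorcs2 (1.93 ± 0.24), a receptor for the BDNF precursor. The pentraxin Nptx1 (-3.56 ± 0.18) and the Homer-bound receptor Grm5 (-2.98 ± 0.17) were lower there. Furin, which cleaves the BDNF precursor, was the only one of the 23 higher in bound sleep deprivation than in bound waking (0.88 ± 0.17, adjusted p = 0.00351). That is a share near the 4.17% of all genes. In the unbound pools Sorcs2 rose in sleep deprivation (0.75 ± 0.16, adjusted p = 0.0497) and Ntrk2 in waking (0.47 ± 0.16, adjusted p = 0.0459), where 1.42% and 5.71% of all genes were higher.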

How the data were processed

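The series measured mRNA of mouse cerebral cortex on Affymetrix Mouse Genome 430 2.0 arrays, which carry 45101 probe sets, in 24 samples. Per the submitters' processing notes, the authors made the deposited log2 values with RMA (background correction, quantile normalization and summary per probe set). Its version, and which arrays were normalized together, are not given in the sources used here. Array medians ran from 5.51 to 5.88. The number of arrays limits the precision, and depth does not apply to arrays.

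Groups were read from the sample titles. The 64 control probe sets were left out. The platform annotation gave 1 symbol for 34945 probe sets, several for 932 and none for 9160, and 34741 of the first matched RefSeq by Entrez ID. Each of 18193 genes was represented by its probe set with the highest mean (9183 had 1 probe set and 9010 more than 1). Differences were tested with limma 3.58.1 (lmFit and eBayes, R 4.3.3), with Benjamini-Hochberg adjustment over all genes and a threshold of 0.05. Bound arrays, unbound arrays and all 24 arrays were fitted separately, the last for fraction and interaction. The 95% intervals use the moderated degrees of freedom. Linear ratios, levels and likenesses were computed in Python 3.11.15 with numpy 2.4.6 and pandas 2.3.3.

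The members, the gene lists and the rules for naming genes were chosen with earlier results of these data known. Named were the 5 members, Aldh1l1 and, from each list and comparison, up to 4 higher and up to 2 lower genes with the largest differences past the threshold. Tie1, Fgfr3 and other marker genes were named as the only ones past it. Likeness was taken over genes at or above the median level of the bound arrays, without Y-linked genes, Xist and predicted transcripts. Rpl10a, the tagged ribosomal protein, is among the genes tested. Some list genes without a probe set of 1 symbol (among them Arl4d, Nptxr, Shank2 and Grin1) were not analysed here.

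Same-numbered bound arrays of different states deviated together (r from 0.268 to 0.530 over genes in 18 pairs), so the number was used as a block in 1 alternative. Within animals 1 to 3 and 4 to 6 the same r ran from -0.11 to 0.18. The labels do not pair animals of different states, so a pairing by number beyond these subsets was not established. Alternatives were a replicate block, repeated quantile normalization, centring on array medians, dim genes left out, the mean of a gene's probe sets, each array left out, a spread from all arrays, animals 1 to 3 or 4 to 6 alone and, chosen after the data were seen, every probe set as the unit. Labels say that arrays are separate animals or pools, so p-values measure the spread between animals or pools.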

Additional observations from a re-analysis of the deposited data

Results flagged for a closer look

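Homer1 in bound waking replicate 2 stood apart from the other waking animals. Its level was 11.88, while the next waking animal was at 11.18 and the lowest at 10.88, so the gap to its neighbour took 0.703 of the range of the group, above the critical value of 0.625 for 6 samples. The same animal had the highest waking level of Arc, 9.33. Over the 5 genes and 3 states, 15 groups of 6 bound arrays were examined, and chance marks about 1 in 20 such groups.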

How the results depend on the processing

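Counts of the 5 genes past the test depended on the setting. In bound waking against sleep 3 passed, against 1 with quantile normalization repeated, with arrays centred, with dim genes left out or with animals 1 to 3 only, and 1 to 3 with single arrays left out. The mean of all probe sets added calls, with 4 there (Nptx2 0.45, adjusted p = 0.0191), 3 in bound sleep deprivation (Bdnf 0.53, adjusted p = 0.00754), 3 in unbound sleep deprivation (Nptx2 1.16, adjusted p = 0.0288) and 5 between fractions. In bound sleep deprivation against waking 0 passed, against 2 with the replicate block, 1 with the mean of all probe sets and 0 to 1 with single arrays left out. Unbound, 2 passed in waking, against 0 with the replicate block (pool numbers, which did not pair: r 0.00118 to 0.0288), quantile normalization or centring, and 1 with dim genes left out or the spread of all 24 arrays. In unbound sleep deprivation 2 passed, against 0 with the block or with dim genes left out and 1 with centring. Without any 1 pool, 0 passed in either, as did 0 of all genes. Among comparisons of bound states the block changed no other call of a member. Genes past the test numbered 2039 in bound waking, 2597 in bound sleep deprivation and 1244 between them. They numbered 3064, 3881 and 1913 with the block, 142, 334 and 76 without dim genes, 937, 1476 and 585 in animals 1 to 3, 638, 1134 and 143 in animals 4 to 6, and 1726 in sleep deprivation after quantile normalization. Unbound, 1149, 341 and 138 passed, against 0 with the block or without any 1 pool, 0, 149 and 2 after quantile normalization, 0, 128 and 5 after centring, 130, 0 and 0 without dim genes and 2031, 568 and 210 with the mean of probe sets. The spread of all 24 arrays gave 999 and 800 for the last 2. The interactions had 1018 (waking) and 890 calls, against 37 and 22 without dim genes and as few as 502 and 447 with 1 array left out. With centring the share of higher calls was 53.3% in place of 60.8% between fractions, 64.5% in place of 33.7% for the waking effect and 41.4% in place of 76.0% in unbound sleep deprivation.

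Differences that changed sign were small or spread widely, and the cause was not tested. With animals 1 to 3 only, Bdnf in bound waking was -0.10 and Npas4 in bound sleep deprivation 0.10. With animals 4 to 6 only, sleep deprivation against waking gave -0.017 for Arc and -0.0039 for Nptx2. The mean of probe sets gave -0.21 for Nptx2 there, 0.22 for Nptx2 in unbound waking and 0.022 for the Bdnf interaction in sleep deprivation. The Homer1 interaction in sleep deprivation was -0.0032 after quantile normalization and -0.0071 with every probe set as the unit. With single arrays left out, Bdnf in bound waking ran from -0.21 (without bound waking replicate 6) to 0.14, Nptx2 in bound sleep deprivation against waking from -0.20 to 0.23, Npas4 in unbound waking from -0.27 to 1.75, Arc and Npas4 in unbound sleep deprivation against waking from -0.014 to 0.63 and from -0.90 to 1.11, the Npas4 waking interaction from -1.31 to 0.70 and the Homer1 sleep deprivation interaction from -0.080 to 0.14. The ratio of linear rise for Homer1 in waking was 0.948 after quantile normalization and 0.979 after centring, and ran from 0.520 (without bound waking replicate 2) to 0.822. For Bdnf it was 0.144 and 0.135 in sleep deprivation (0.148 to 0.236 with single arrays left out) and ran from -0.0666 to 0.233 in waking. For Nptx2 it was 0.0674 and 0.0648 (0.0205 to 0.126), and for Npas4 it ran from -0.0207 to 0.0121. Of 1041 alternatives to single members' differences, 922 kept direction and call.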

Other observations

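In bound sleep and sleep deprivation, some members divided by animal number. In sleep, Arc ran from 6.27 to 6.75 in animals 1 to 3 and from 5.29 to 5.84 in animals 4 to 6, and in sleep deprivation from 9.31 to 9.47 and from 7.77 to 8.29, with no overlap in either state, while in waking the subsets overlapped (7.84 to 9.33 and 7.86 to 8.39). Bdnf lay the other way in sleep, from 5.98 to 6.16 in animals 1 to 3 and from 6.40 to 6.78 in animals 4 to 6, and overlapped in sleep deprivation. The Homer1 probe sets also parted: in bound sleep 1436387_at ran from 7.31 to 8.13 in animals 1 to 3 and from 8.38 to 9.03 in animals 4 to 6, while 1421768_a_at ran from 10.45 to 11.03 and from 10.15 to 10.42. What the animal numbers stand for beyond the pools they went into is not given in the sources used here. These values were noticed in the data and were not tested. The share of all genes that part in this way was not computed, so the division is not read as a trait of the members.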
